A study of Mus musculus with 8 samples.

Results

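The genes described here are the TET enzymes and the genes most often linked to active DNA demethylation, 8 in all: Tet1, Tet2, Tet3, Tdg, Mbd4, Gadd45a, Gadd45b and Apobec1. They were chosen by name, and every probe that the platform annotation pairs with one of them was taken, which gave 12 of 45281 probes. Of the 8 genes, 7 had at least 1 such probe, and no probe was named to Tet2. A detection p-value under 0.05 on at least 2 of the 8 arrays, the filter used for every gene, kept 8 of the 12 probes and 6 of the 8 genes, among 10930 genes tested. The samples were E14 mouse embryonic stem cells, an established line, whose RNA was hybridised to Illumina BeadChip expression arrays, 2 per group. The groups were 3 hairpins against Dnmt3l (shDnmt3L1, shDnmt3L2 and shDnmt3L3) and a hairpin against GFP (shGFP), a sequence that these cells are not labelled as carrying. All 4 groups shared medium with 15% serum and 1500 U/ml LIF, transfection with a short hairpin RNA (shRNA) and 3 days of puromycin. Dnmt3l encodes the catalytically inactive partner of the de novo DNA methyltransferases, so the comparison asks how RNAs of the demethylation side stood in cells with less Dnmt3l. The arrays of a group are called duplicates and are not said to be separate cultures, and the p-values here reflect nothing beyond the spread within those pairs, which may be technical. A single line was used, and the sources used here do not give the hairpins' target sites.

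TET enzymes are iron- and 2-oxoglutarate-dependent dioxygenases that oxidise 5-methylcytosine to 5-hydroxymethylcytosine and on to formyl and carboxyl forms. Thymine DNA glycosylase (Tdg) cuts out the formyl and carboxyl forms, and base excision repair then restores an unmodified cytosine. Mbd4 binds methyl-CpG and removes thymine from the mismatch left when a methylated cytosine is deaminated. Gadd45a and Gadd45b are small stress-induced proteins without enzyme activity of their own that have been linked to repair-based demethylation. Apobec1 is a cytidine deaminase best known for editing apolipoprotein B RNA. In mouse embryonic stem cells Tet1 and Tet2 are known as the main TET genes, and Tet3 is best known from the oocyte and the zygote.

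RNA levels were measured here and DNA methylation was not, so the promoters are shown only as the reference sequence of the loci that the results turn on. Tet1 is shown because it was the gene that rose, Tdg and Gadd45a because both fell, and Gadd45b because its direction differed between hairpins. Each window is 300 bases of GRCm38.p6 from RefSeq, from 250 bases before to 50 after the annotated start, written 5′ to 3′ on the gene's own strand with CpG dinucleotides in capitals. They lie at chr10:62887275-62887574 (minus strand, Tet1), chr10:82629588-82629887 (plus strand, Tdg), chr6:67037358-67037657 (minus strand, Gadd45a) and chr10:80929841-80930140 (plus strand, Gadd45b). The Gadd45a and Gadd45b starts are the outer ends of their genes, while the Tet1 and Tdg starts lie inside the gene spans given below. Other starts of these genes were not searched.
Tet1 promoter: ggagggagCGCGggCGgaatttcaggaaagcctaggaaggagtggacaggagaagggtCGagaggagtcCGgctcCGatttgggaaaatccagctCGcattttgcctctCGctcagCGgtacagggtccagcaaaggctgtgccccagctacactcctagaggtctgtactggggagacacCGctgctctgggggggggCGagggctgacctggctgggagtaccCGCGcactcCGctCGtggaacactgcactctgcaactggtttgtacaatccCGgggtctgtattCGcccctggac
Tdg promoter: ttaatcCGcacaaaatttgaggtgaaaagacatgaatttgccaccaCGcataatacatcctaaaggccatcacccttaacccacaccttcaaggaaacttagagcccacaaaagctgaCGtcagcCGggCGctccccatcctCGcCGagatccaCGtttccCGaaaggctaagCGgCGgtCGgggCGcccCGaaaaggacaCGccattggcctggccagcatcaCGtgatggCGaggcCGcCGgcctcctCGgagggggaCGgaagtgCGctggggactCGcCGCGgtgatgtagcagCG
Gadd45a promoter: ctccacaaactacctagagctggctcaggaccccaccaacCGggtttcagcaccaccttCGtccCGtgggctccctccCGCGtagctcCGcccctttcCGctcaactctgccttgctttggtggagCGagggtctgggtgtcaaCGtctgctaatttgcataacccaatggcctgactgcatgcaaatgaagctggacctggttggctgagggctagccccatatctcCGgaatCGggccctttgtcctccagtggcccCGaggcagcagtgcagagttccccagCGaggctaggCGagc
Gadd45b promoter: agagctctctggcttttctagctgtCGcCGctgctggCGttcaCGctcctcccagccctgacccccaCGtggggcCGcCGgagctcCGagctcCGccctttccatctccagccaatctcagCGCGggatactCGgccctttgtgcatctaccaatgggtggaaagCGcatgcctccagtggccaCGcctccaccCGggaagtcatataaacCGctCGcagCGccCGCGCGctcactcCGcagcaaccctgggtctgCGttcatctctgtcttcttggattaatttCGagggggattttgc

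All 8 genes had a promoter window in the RefSeq table. Their CpG counts were 17 for Tet1, 57 for Tet2, 22 for Tet3, 26 for Tdg, 25 for Mbd4, 14 for Gadd45a, 24 for Gadd45b and 9 for Apobec1. The median over 32851 mouse windows was 7 and the upper quartile 20, so each of the 8 held more CpG than the median window. Tet2 held more than 99.8% of windows, and Apobec1 more than 54.2%. Of the 5 motifs searched on both strands, the octamer ATGCAAAT occurred in the Gadd45a window alone among the 8, starting at -97 and -70 from the start site, and in 1.74% of all windows. The cyclic AMP response element TGACGTCA occurred only in the Tdg window, at -135, and in 1.79% of all windows. The E-box CACGTG, in 7.15% of all windows, occurred in the Tdg window at -28 and the Gadd45b window at -185. CCAAT, in 37.4% of all windows, was in the windows of Tet3, Tdg, Mbd4, Gadd45a and Gadd45b, and GGGCGG, in 35.7%, in those of Tet1, Tet2, Tet3, Mbd4, Gadd45a and Gadd45b. A match describes letters in a window and not binding, and no match says only that these letters are not in that window. The counts and positions belong to these windows alone. The Mbd4 start lies inside the gene span, and the windows of Tet2, Tet3 and Apobec1 lie wholly inside theirs. For Tet3 the window is chr6:83441629-83441928, on the minus strand, and the gene spans chr6:83362373-83457208.

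The arrays were close in overall signal. Median raw intensity was 101 to 104 on the hairpin arrays and 96.1 and 96.9 on the shGFP arrays. The negative-control level was 93.5 to 96.3 and 89.3 to 89.9 on the same arrays. It was inferred from probes whose detection p lay near the middle of its range, and no control-probe intensities were used. Between 18111 and 19241 probes were detected per array. Because the background was lower on both shGFP arrays, raw intensities of dim probes are also given over each array's negative-control level. Dnmt3l was lower with every hairpin, at 36.8% (shDnmt3L1), 45.4% (shDnmt3L2) and 15.8% (shDnmt3L3) of its shGFP level. Normalized values below are log2 intensities after background correction and quantile normalization, and levels of different probes are not set against each other. In bulk RNA, fewer cells that express a gene and less RNA per cell cannot be told apart.

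Against shGFP, the 3 hairpin groups together had more Tet1 RNA and less Tdg, Mbd4, Gadd45a and Apobec1 RNA. By limma, 5 of the 6 tested genes were called at an adjusted p under 0.05, beside 52.2% of all genes tested. Tet1 alone was higher, beside 27.5% of all genes called higher, and 4 genes were lower, beside 24.7% called lower. The differences were small, between -0.49 and 0.46 on the log2 scale, while the median over all genes was 0.01. In the F test of any difference among the 4 groups, all 6 genes were called, beside 66.1% of all genes, with adjusted p between 0.000158 (Gadd45b) and 0.00944 (Mbd4). The hairpin group was also taken as a random block in limma, so that arrays of a group may share a deviation, with 1 correlation for all genes. That fit does not reduce a group to 1 value. It called 0 of the 6 genes, beside 323 of all 10930 genes. An unadjusted p under 0.05 was found for 1 of the 6, beside 2220 of all 10930 genes. The plot of normalized levels by array shows these values. How many of all genes had every hairpin array on 1 side of both shGFP arrays was not computed.

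**Figure D1:**
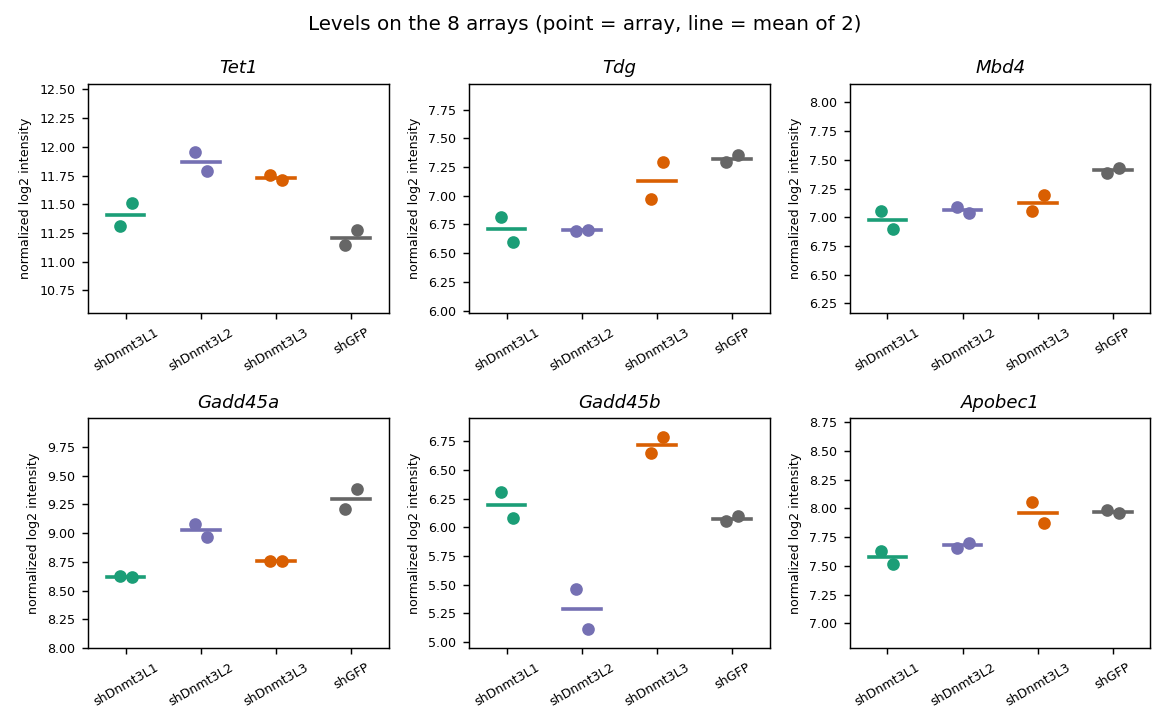
Normalized log2 intensity (y axis, each panel spanning 2 log2 units) of the 6 tested genes on the 8 arrays (points) by group (x axis), with the mean of the 2 arrays of a group as a line. All 6 hairpin arrays lie above both shGFP arrays for Tet1 and below both for Mbd4 and Gadd45a, while for Gadd45b shDnmt3L2 lies below and shDnmt3L3 above shGFP.

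Tet1 (chr10:62804570-62887469, GRCm38.p6) encodes the TET dioxygenase with a CXXC domain that binds CpG-rich DNA, and its 1 probe was detected on all 8 arrays. Its raw intensity was 2599 and 2991 in shDnmt3L1, 4081 and 3579 in shDnmt3L2, 3289 and 3443 in shDnmt3L3, and 2357 and 2711 in shGFP. Raw values of shDnmt3L1 and shGFP overlapped. After normalization Tet1 had log2 levels of 11.31 and 11.51 in shDnmt3L1, 11.95 and 11.79 in shDnmt3L2, 11.75 and 11.71 in shDnmt3L3, and 11.15 and 11.27 in shGFP. All 6 hairpin arrays lay above both shGFP arrays. Tet1 rose by 0.46 ± 0.08 (SE) on the log2 scale over the 3 hairpins, 1.38-fold (limma, adjusted p = 0.00157, 95% interval 0.28 to 0.64). It rose by 0.66 with shDnmt3L2 (adjusted p = 0.00126) and by 0.52 with shDnmt3L3 (adjusted p = 0.00232). With shDnmt3L1 the difference was 0.20, with an interval of -0.03 to 0.43 (adjusted p = 0.128), and it was called without background correction (adjusted p = 0.02), with offset 50 (0.0456) and with a trended, robust spread model (0.0225). It was 0.08 with median scaling (adjusted p = 0.58) and -0.08 when arrays were scaled by the median of the probes detected on all 8 (adjusted p = 0.527). From low to high the groups stood shGFP, shDnmt3L1, shDnmt3L3 and shDnmt3L2. The first and last neighbouring pairs in that order did not differ beyond their spread (adjusted p = 0.128 and 0.286), and shDnmt3L3 lay above shDnmt3L1 (adjusted p = 0.0347). The 3-hairpin difference was called with each of the 8 arrays left out in turn. With the detected-probe scaling it was 0.20 and not called (adjusted p = 0.0627), and the differences with shDnmt3L2 and shDnmt3L3 were 0.41 and 0.27, still called.

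The other TET genes gave no level. The 3 Tet3 probes were detected on 0 of 8 arrays. Their raw intensities ran from 84.3 to 104, that is 0.93 to 1.12 times the negative-control level of the same array, and the lowest detection p was 0.0652, on an shGFP array. Tet3 RNA was thus not detectable by these probes in any group, and no fold is given. Tet2 (chr3:133463677-133545136) was not analysed here, for lack of a probe paired with it.

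Tdg (chr10:82629814-82650799), the glycosylase that removes the oxidised bases TET enzymes make, was dim but detected on all 8 arrays by 1 of its 2 probes. Its log2 levels were 6.82 and 6.60 in shDnmt3L1, 6.70 and 6.70 in shDnmt3L2, 6.97 and 7.30 in shDnmt3L3, and 7.29 and 7.35 in shGFP. Of the 6 hairpin arrays, 5 lay below both shGFP arrays, and shDnmt3L3 replicate 2 lay between them. Over the negative controls, the signal was 1.93 to 2.15 times on those 5 arrays, 2.57 times on shDnmt3L3 replicate 2, and 2.40 and 2.54 times on the shGFP arrays. Tdg fell by 0.48 ± 0.10 over the 3 hairpins (adjusted p = 0.00333, interval -0.70 to -0.26), that is to 71.9% of its shGFP level, and by 0.30 without background correction, still called. It fell by 0.61 with shDnmt3L1 (adjusted p = 0.00297) and by 0.62 with shDnmt3L2 (adjusted p = 0.00378). With shDnmt3L3 the difference was -0.19, with an interval of -0.46 to 0.08 (adjusted p = 0.212). That value depends on both arrays of its group. Without shDnmt3L3 replicate 2 it was -0.35 and called (adjusted p = 0.0399), and without shDnmt3L3 replicate 1 it was -0.03 (0.875). The order from low to high was shDnmt3L2, shDnmt3L1, shDnmt3L3 and shGFP, and shDnmt3L2 and shDnmt3L1 did not differ beyond their spread (adjusted p = 0.974). The second Tdg probe was detected on 0 arrays, with a lowest detection p of 0.291.

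A probe named to Tdg-ps2, a transcribed pseudogene of Tdg on chromosome 10, was detected on all 8 arrays and was looked at because of its likeness to Tdg. Its log2 levels were 5.41 and 5.10 in shDnmt3L1, 5.30 and 5.03 in shDnmt3L2, 5.34 and 5.84 in shDnmt3L3, and 5.81 and 5.95 in shGFP. It fell by 0.54 ± 0.14 over the 3 hairpins (adjusted p = 0.0136 over all kept probes), and without shGFP replicate 2 it was no longer called (-0.47, adjusted p = 0.0977). Its differences were -0.63 with shDnmt3L1 (adjusted p = 0.02), -0.72 with shDnmt3L2 (0.0142) and -0.29 with shDnmt3L3 (0.211). Whether either probe also reads the other RNA was not tested, since probe sequences were not used here.

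Mbd4 (chr6:115840697-115853400), the methyl-CpG binding thymine glycosylase, had 1 probe, detected on all arrays. Its raw intensities overlapped, at 207 to 233 on the hairpin arrays and 223 and 236 on the shGFP arrays. Over the negative controls they did not, at 2.16 to 2.47 times on the hairpin arrays and 2.50 and 2.63 times on the shGFP arrays. Normalized log2 levels were 7.05 and 6.90 in shDnmt3L1, 7.09 and 7.03 in shDnmt3L2, 7.06 and 7.20 in shDnmt3L3, and 7.39 and 7.43 in shGFP. All 6 hairpin arrays lay below both shGFP arrays, and shDnmt3L2 overlapped with each of the other two hairpin groups. Mbd4 fell by 0.36 ± 0.07 over the 3 hairpins (adjusted p = 0.00312, interval -0.52 to -0.19), to 78.1% of its shGFP level. It fell by 0.44 with shDnmt3L1 (adjusted p = 0.00361), by 0.35 with shDnmt3L2 (0.0129) and by 0.28 with shDnmt3L3 (0.0245). No pair of hairpins differed beyond the spread, with intervals of -0.04 to 0.35 for shDnmt3L3 minus shDnmt3L1, -0.13 to 0.27 for shDnmt3L3 minus shDnmt3L2 and -0.29 to 0.11 for shDnmt3L1 minus shDnmt3L2. With median scaling none of the 3 single-hairpin calls held (limma, adjusted p = 0.0542 with shDnmt3L1, 0.118 with shDnmt3L2 and 0.181 with shDnmt3L3), while the 3-hairpin call did, at a smaller difference of -0.23, as without background correction (-0.23). The shDnmt3L2 call was also lost without shDnmt3L2 replicate 2 (adjusted p = 0.0661) or shGFP replicate 2 (0.0622). The shDnmt3L3 call was lost without shDnmt3L3 replicate 1 (0.142), shGFP replicate 1 (0.0593) or shGFP replicate 2 (0.0983), and the F test call without shGFP replicate 2 (0.0584).

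**Figure D2:**
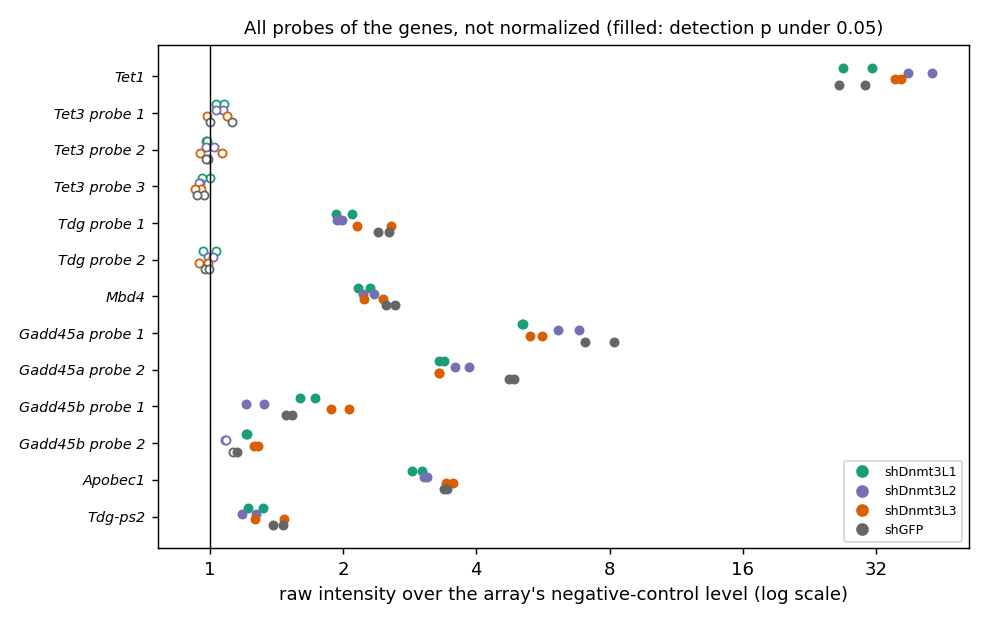
Raw intensity divided by the inferred negative-control level of the same array (x axis, log scale) for every probe of the genes and for Tdg-ps2 (y axis). Each array is 1 point, coloured by group and filled where the detection p was under 0.05. All 3 Tet3 probes and the second Tdg probe sit at 0.93 to 1.12 times the controls on every array, while Tet1 lies between 26.4 and 42.7 times.

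Gadd45a (chr6:67035096-67037407) encodes a p53- and stress-induced protein that binds PCNA and activates the kinase MAP3K4. Its brighter probe had raw intensities of 489 and 487 in shDnmt3L1, 654 and 581 in shDnmt3L2, 495 and 530.2 in shDnmt3L3, and 629 and 734 in shGFP. Normalized log2 levels were 8.63 and 8.62 in shDnmt3L1, 9.08 and 8.97 in shDnmt3L2, 8.76 and 8.76 in shDnmt3L3, and 9.21 and 9.38 in shGFP. All 6 hairpin arrays lay below both shGFP arrays after normalization. Gadd45a fell by 0.49 ± 0.07 over the 3 hairpins (adjusted p = 0.000519, interval -0.65 to -0.33), to 71.1% of its shGFP level. It fell by 0.67 with shDnmt3L1 (adjusted p = 0.000357), by 0.27 with shDnmt3L2 (0.0351) and by 0.54 with shDnmt3L3 (0.000921). The shDnmt3L2 call was lost with 7 of the 8 arrays left out in turn, all but shGFP replicate 1, at adjusted p up to 0.197 without shGFP replicate 2, and with median scaling (0.124).

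The second Gadd45a probe was also lower with every hairpin. Its log2 levels were 7.80 and 7.85 in shDnmt3L1, 7.93 and 8.14 in shDnmt3L2, 7.91 and 7.80 in shDnmt3L3, and 8.61 and 8.52 in shGFP. Again all 6 hairpin arrays lay below both shGFP arrays. It fell by 0.66 ± 0.08 over the 3 hairpins (adjusted p = 0.000254 over all kept probes) and was called with each hairpin, at -0.74 (shDnmt3L1), -0.53 (shDnmt3L2) and -0.71 (shDnmt3L3). Both probes gave their smallest difference with shDnmt3L2. The direct difference shDnmt3L1 minus shDnmt3L2 was -0.40 on the brighter probe (adjusted p = 0.0273) and -0.21 on the second (0.237), and the probes were not tested against each other.

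Gadd45b (chr10:80930091-80932204), the paralog of Gadd45a, varied most among the groups in the setting of the report and had no common direction. Its brighter probe was dim, at 1.21 to 2.07 times the negative controls, and was detected on all 8 arrays. The raw intensities were 167 and 153 in shDnmt3L1, 127 and 114 in shDnmt3L2, 175 and 195 in shDnmt3L3, and 133 and 138 in shGFP. Normalized log2 levels were 6.30 and 6.08 in shDnmt3L1, 5.46 and 5.11 in shDnmt3L2, 6.65 and 6.79 in shDnmt3L3, and 6.05 and 6.09 in shGFP. Both shDnmt3L2 arrays lay below, and both shDnmt3L3 arrays above, every array of the other groups, while shDnmt3L1 and shGFP overlapped. Gadd45b fell by 0.79 with shDnmt3L2 (adjusted p = 0.00175, interval -1.08 to -0.50) and rose by 0.64 with shDnmt3L3 (adjusted p = 0.00272, interval 0.36 to 0.93). With shDnmt3L1 the difference was 0.12, with an interval of -0.17 to 0.41 (adjusted p = 0.467). Over the 3 hairpins these gave -0.01 ± 0.10 (adjusted p = 0.954, interval -0.24 to 0.23). The group means spanned 2.70-fold, against 1.32- to 1.59-fold for the other 5 genes. Both single-hairpin calls held with each of the 8 arrays left out in turn and under every other processing that gave a value. Gadd45b had none under the stricter detection filter, which removed it. The sizes depended on the background correction: without it the differences were -0.31 with shDnmt3L2 and 0.33 with shDnmt3L3, and on the authors' processed intensities -1.18 and 0.81. Without it Gadd45b also no longer varied most. Its shDnmt3L3 minus shDnmt3L2 difference was then 0.641, and the shDnmt3L2 minus shGFP difference of Tet1 was 0.643.

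The second Gadd45b probe was close to the negative controls, at 1.09 to 1.29 times, and was detected on 5 of 8 arrays. Its log2 levels were 5.08 and 5.06 in shDnmt3L1, 4.60 and 4.64 in shDnmt3L2, 5.42 and 5.24 in shDnmt3L3, and 4.82 and 4.92 in shGFP. Both shDnmt3L3 arrays were highest and both shDnmt3L2 arrays, where the probe was not detected, were lowest. It was higher with shDnmt3L3 by 0.46 (adjusted p = 0.00332), and the difference with shDnmt3L1 was 0.20 (adjusted p = 0.113). Since shDnmt3L2 has only a bound here, no difference from shGFP is given for it, and shDnmt3L3 was at least 1.42-fold higher than shDnmt3L2, the mean of shDnmt3L3 being set against the higher of the lowest detected signal and the probe's own on each shDnmt3L2 array.

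Apobec1 (chr6:122577792-122603024), the RNA-editing cytidine deaminase, had 1 probe, detected on all 8 arrays at 2.86 to 3.54 times the negative controls. Normalized log2 levels were 7.63 and 7.51 in shDnmt3L1, 7.66 and 7.70 in shDnmt3L2, 8.05 and 7.87 in shDnmt3L3, and 7.98 and 7.96 in shGFP. The arrays of shDnmt3L1 and shDnmt3L2 all lay below both shGFP arrays, and the 2 shDnmt3L3 arrays lay on either side of them. Apobec1 fell by 0.40 with shDnmt3L1 (adjusted p = 0.0059; -0.26 with median scaling, still called) and by 0.29 with shDnmt3L2 (adjusted p = 0.0286). With shDnmt3L3 the difference was -0.01, with an interval of -0.21 to 0.19 (adjusted p = 0.953). Over the 3 hairpins it fell by 0.23 ± 0.07 (adjusted p = 0.024), and this call did not hold without shGFP replicate 1 (-0.22, adjusted p = 0.118), without shGFP replicate 2 (-0.25, 0.0866) or with median scaling (-0.12, 0.183). The shDnmt3L2 call was lost without either shDnmt3L2 array (adjusted p = 0.113 and 0.0761), without either shGFP array (0.102 and 0.08) and with median scaling (0.161).

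**Figure D3:**
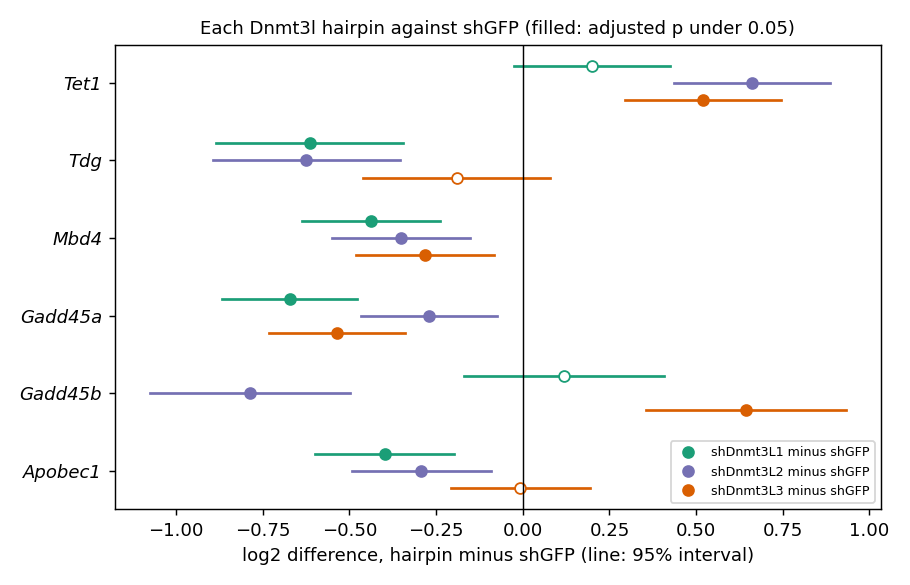
Log2 difference of each Dnmt3l hairpin group from shGFP (x axis) for the 6 tested genes (y axis), with the 95% interval as a line and a filled point where limma's adjusted p was under 0.05. Mbd4 and Gadd45a have filled points left of 0 with all 3 hairpins, and Gadd45b has one on either side of 0, at -0.79 for shDnmt3L2 and 0.64 for shDnmt3L3.

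Taken hairpin by hairpin, Mbd4 and Gadd45a were called lower with each of the 3. The share of all genes called in 1 direction with every hairpin was not computed, here or for the lists below. With shDnmt3L1, 4 of the 6 genes were called (Tdg, Mbd4, Gadd45a and Apobec1, all lower), beside 47.9% of all genes called and 22.6% called lower. With shDnmt3L2 all 6 were called (Tet1 higher and 5 lower), beside 39.2% of all genes called, 20.8% higher and 18.3% lower. That count was 3 without shDnmt3L2 replicate 2, 3 without shGFP replicate 2 and 3 with median scaling. With shDnmt3L3, 4 were called (Tet1 and Gadd45b higher, Mbd4 and Gadd45a lower), beside 52.2% of all genes called, 27.1% higher and 25.1% lower. All 3 comparisons share the same 2 shGFP arrays. Over every kept probe as a feature of its own, 6 of the 8 probes of these genes were called in the 3-hairpin comparison (1 higher and 5 lower), beside 46.0% of all kept probes called, 22.7% higher and 23.3% lower.

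The hairpins were also set directly against each other. The shGFP level does not enter these differences, though the shGFP arrays share the normalization and the estimate of the spread. Gadd45b differed between each pair: shDnmt3L3 lay above shDnmt3L2 by 1.43 (adjusted p = 6.74e-05; 0.64 without background correction, 1.99 on the authors' processed intensities) and above shDnmt3L1 by 0.53 (0.0121), and shDnmt3L1 lay above shDnmt3L2 by 0.91 (0.00621). In shDnmt3L3 against shDnmt3L1, 4 of the 6 genes were called, all higher (Tet1, Tdg, Gadd45b and Apobec1), beside 35.3% of all genes called and 17.7% called higher. In shDnmt3L3 against shDnmt3L2, 4 were called (Tdg, Gadd45b and Apobec1 higher, Gadd45a lower), beside 42.2% of all genes called, 21.8% higher and 20.4% lower. In shDnmt3L1 against shDnmt3L2, 3 were called (Gadd45b higher, Tet1 and Gadd45a lower), beside 8.05% of all genes called, 4.78% higher and 3.27% lower. Tdg and Apobec1 thus had higher levels with shDnmt3L3, the hairpin with the least Dnmt3l left, than with either other hairpin. In the order shDnmt3L1 and shDnmt3L2, the differences were 0.43 and 0.43 for Tdg and 0.39 and 0.28 for Apobec1. On the authors' processed intensities Tdg was called against neither shDnmt3L1 (0.50, limma, adjusted p = 0.0603) nor shDnmt3L2 (0.51, 0.0504). With median scaling, Tdg against shDnmt3L1 (0.35, 0.0642) and Apobec1 against shDnmt3L2 (0.23, 0.0631) were not called. For Gadd45a, shDnmt3L3 lay 0.14 from shDnmt3L1, with an interval of -0.06 to 0.33. Among these 11 called differences, only shDnmt3L3 against shDnmt3L2 for Gadd45b was called with each of the 8 arrays left out in turn. Each of the others was lost without at least 1 array: Gadd45b between shDnmt3L1 and shDnmt3L2 without shDnmt3L1 replicate 1 only (adjusted p = 0.053), and Gadd45a between shDnmt3L3 and shDnmt3L2 without any 1 of the 6 hairpin arrays (0.0506 to 0.172).

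The genes around these enzymes were described by 6 lists, by counts called in the 3-hairpin comparison, beside 27.5% of all genes called higher and 24.7% called lower and a median of 0.01 over all genes. Together 41 of the 72 tested genes of the lists were called. That count was lower without shGFP replicate 1. With the hairpin group as a random block it was 0, beside 323 called of all 10930 genes. In that limma fit 15 of the 72 had an unadjusted p under 0.05, beside 2220 of all 10930 genes. Of 18 tested genes of base excision repair, which completes TET-initiated demethylation, 3 were higher and 7 lower, with a median difference of 0.04. Apex1, the main abasic-site endonuclease, fell by 0.71, its paralog Apex2 by 0.52 and the flap endonuclease Fen1 by 0.42, each also called with every single hairpin. Parp1, which senses strand breaks, rose by 0.38 and was likewise called with every hairpin. Xrcc1, the scaffold protein of this repair that TDG has been tied to, differed by 0.09 and was not called (adjusted p = 0.365). The glycosylase genes were looked at after their values were seen. Ung, Smug1, Neil1, Neil2, Neil3 and Nthl1 were called higher with shDnmt3L3, by 0.40 to 1.12, beside 27.1% of all genes. Ogg1, Mutyh and Mpg were not called with it, and none of these genes was called higher with shDnmt3L1 or shDnmt3L2. Neil1 was detected on 3 arrays and Neil3 on 5.

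Of 17 tested TET partners, 6 were higher and 2 lower, with a median of 0.13. Ogt, the sugar transferase that binds TET proteins, rose by 0.24 (adjusted p = 0.0324), and its other detected probes gave 0.36 to 0.87. Sin3a, a corepressor scaffold found with TET1, rose by 0.20 (0.0219), and Prdm14, a pluripotency regulator tied to TET recruitment, by 0.23 (0.0213). Prdm14 was at -0.001 with shDnmt3L1 (adjusted p = 0.993), 0.48 with shDnmt3L2 (0.00252) and 0.20 with shDnmt3L3 (0.0719). The 2 partners called lower were Mbd3, at -0.33 (0.00294), and Cul4b, at -0.23 (0.0139). Nanog, a pluripotency factor that binds TET1, was at -0.01 and not called, and its other detected probe gave 0.34. Hcfc1, an Ogt partner, was at 0.12 and not called over the 3 hairpins, but was called with each, at 0.26 with shDnmt3L1 (adjusted p = 0.0456), 0.38 with shDnmt3L2 (0.0124) and -0.28 with shDnmt3L3 (0.0318). Calcoco1, a coiled-coil coactivator, rose by 0.42 and was called with every hairpin. Of 12 tested genes for the supply of 2-oxoglutarate, iron and ascorbate, which TET enzymes need, 4 were higher and 2 lower, with a median of 0.03. Idh3g, a subunit of the mitochondrial isocitrate dehydrogenase that makes 2-oxoglutarate, rose by 0.56 and was called with every hairpin.

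Of 4 tested deaminases and APOBEC1 cofactors, 3 were lower and 0 higher, with a median of -0.31, and 3 had an unadjusted p under 0.05. Rbm47, an RNA-binding protein that serves APOBEC1 editing, fell by 0.52, with -0.66 in shDnmt3L1, -0.72 in shDnmt3L2 and -0.17 in shDnmt3L3. Syncrip, another APOBEC1-binding protein, fell by 0.24, with -0.48 in shDnmt3L1, -0.37 in shDnmt3L2 and 0.12 in shDnmt3L3. For both, as for Apobec1 itself, the shDnmt3L3 difference was not called (adjusted p = 0.0969 for Rbm47 and 0.241 for Syncrip). Apobec3, a deaminase that restricts retroviruses, fell by 0.37 and was called with every hairpin.

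Of 11 tested GADD45 family members and partners, 3 were higher and 6 lower, with a median of -0.23. Gadd45g, the other paralog, was the most changed gene of the list and was picked out after its values were seen. Its log2 levels were 8.85 and 8.84 in shDnmt3L1, 8.81 and 8.70 in shDnmt3L2, 7.52 and 7.33 in shDnmt3L3, and 7.25 and 7.24 in shGFP. It rose by 1.60 with shDnmt3L1 and 1.51 with shDnmt3L2, while the shDnmt3L3 difference was 0.18 (adjusted p = 0.123), and its other detected probe gave 0.65 over the 3 hairpins. Pcna, the replication clamp that GADD45 proteins bind, fell by 0.65, and Cdkn1a, the cell-cycle inhibitor p21 that they also bind, rose by 0.71. The excision-repair nuclease gene Ercc5 rose by 0.51 and Ercc1 fell by 0.41, though the other Ercc5 probe gave 0.11. These 4 were called with every hairpin. The kinase genes Map3k4 (0.07) and Cdk1 (-0.17), whose products GADD45 proteins bind, were not called. Of 10 tested readers of 5-hydroxymethylcytosine and methyl-CpG, 2 were higher and 3 lower, with a median of -0.09. Hmces, which protects abasic sites, fell by 1.03 and Mbd1, a methyl-CpG binding repressor, by 0.56, while Uhrf2, a ubiquitin ligase that reads 5-hydroxymethylcytosine, rose by 0.60 and Sall1, a zinc-finger factor, by 0.56. These 4 were also called with every hairpin.

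For each gene, the genes with the most similar profile over the 8 arrays were picked by Pearson's r, as a description of arrays that share groups, background and normalization. For Tet1 these were Nhlrc2 (r = 0.986) and Pum3 (0.970), and for Tdg Nr2c2ap (0.979) and Tatdn1 (0.971). Mbd4 was nearest to Tmed8 (0.984) and the splicing factor gene Slu7 (0.983), and Gadd45a to Manba (0.993), a lysosomal mannosidase gene, and Zpr1 (0.992). Gadd45b was nearest to Rad51d (0.977), a homologous recombination gene, and Pcmtd1 (0.970), and Apobec1 to Pmm1 (0.979) and the purine salvage gene Aprt (0.979).

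The cells' label was set against marker genes, whose normalized intensities were summed per array. All 9 embryonic stem cell markers were detected, 0 of them were called and 0 had an unadjusted p under 0.05 over the 3 hairpins, and their sum was 39740 to 45260 on the hairpin arrays and 40400 to 41670 on the shGFP arrays. Single hairpins did move some of them: Klf4 fell by 0.48 and Esrrb by 0.28 with shDnmt3L1, Sox2 fell by 0.32 and Pou5f1 rose by 0.24 with shDnmt3L2, and with shDnmt3L3 Pou5f1 fell by 0.40 and Utf1 by 0.45 while Esrrb rose by 0.24 (limma, adjusted p between 0.00186 and 0.0479). Of 6 fibroblast or feeder markers, 2 were tested and both rose (Thy1 and Acta2), with sums of 660 to 665 in shDnmt3L1, 379 to 432 in shDnmt3L2, 494 to 522 in shDnmt3L3 and 192 to 202 in shGFP. The defining collagen genes Col1a1 and Col1a2, and Postn and Lum, did not pass the detection filter. Of 5 primitive endoderm markers, Dab2 alone was tested and rose, with sums of 87.6 to 95.5, 62.3 to 64.3 and 17.9 to 22.9 in shDnmt3L1, shDnmt3L2 and shDnmt3L3 and 14.3 to 23.4 in shGFP, while Gata4, Gata6, Sox17 and Pdgfra did not pass the filter. Of 4 trophectoderm markers, 3 were tested and Krt7 and Krt8 rose, with sums of 196 to 331 on the hairpin arrays and 181 to 200 on the shGFP arrays, and Cdx2 did not pass. Nes and Eomes, the single tested markers of neuroectoderm and mesoderm, were not called over the 3 hairpins. Eomes, also on the trophectoderm list, rose by 0.71 with shDnmt3L1 (adjusted p = 0.000832) and 0.35 with shDnmt3L2 (0.0296), and was not detected on either shDnmt3L3 array. Nes rose by 0.57 with shDnmt3L2 (0.00964). The part of these markers in the differences of the TET and demethylation genes was not tested.

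**Figure D4:**
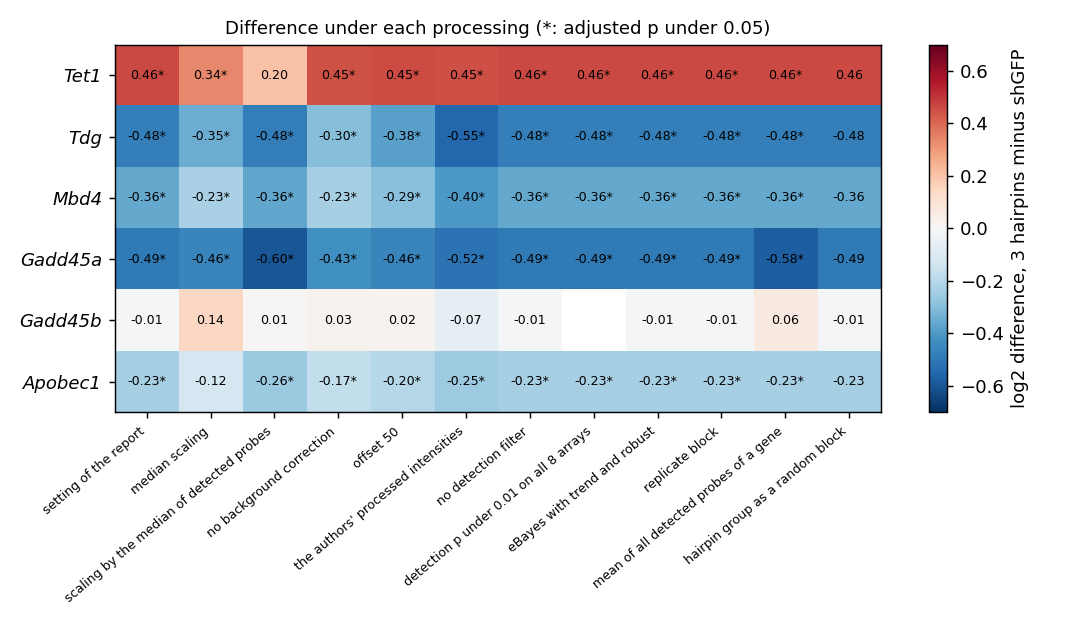
Log2 difference of the 3 hairpin groups together from shGFP for the 6 tested genes (rows of cells) under the setting of the report and 11 other settings (columns), with a star where the adjusted p was under 0.05 and a blank where the filter removed the gene. The direction of the 5 called genes was the same in every column, and no star appears in the last column, where the hairpin group was a random block.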

How the data were processed

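RNA of 8 samples in 4 groups of 2 was measured on Illumina BeadChip arrays. The authors' deposited table gives 1 linear intensity per probe and array without background subtraction, from GenomeStudio 2011.1 per the submitters' processing notes. Next to it the authors deposited a p-value with no column name, which was read as the detection p of that intensity, from its position and values. The authors' deposited processed intensities, whose making is not given in the sources used here, served as an alternative only.

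Intensities were background-corrected and quantile-normalized with neqc in limma 3.58.1 (R 4.3.3), with an offset of 16 before log2, so differences of dim probes depend on the offset. Of 45281 probes, 34885 were paired with 1 gene, 18 with several and 10378 were unnamed here, and 34807 symbols were matched by gene ID to RefSeq for GRCm38.p6. The detection filter (p under 0.05 on 2 or more arrays) came before each gene took its brightest remaining probe. All arrays entered 1 limma model with 4 group means (4 residual and 4.64 prior degrees of freedom), two-sided, with Benjamini-Hochberg adjustment over all 10930 genes or all 20754 kept probes. The only 8 arrays limit the precision.

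The genes, the 6 lists around them, the marker lists and the tests were chosen with earlier results of these data known. Named from the lists were genes called in the 3-hairpin comparison and with every hairpin, at most 4 a list. Some genes known to bind one of the 8, the glycosylases of the repair list, the TET partners called lower and the 2 nearest profiles per gene were also named. Same-numbered arrays were checked for shared deviations, and the 6 correlations ran from -0.0105 to 0.0373. No sizeable shared deviation was seen, which cannot show whether same-numbered arrays were handled together. Alternatives were other scalings, background settings, filters, probe rules and spread models, blocks, and each array left out in turn. The model script was tested on simulated data.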

Additional observations from a re-analysis of the deposited data

Results flagged for a closer look

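In direct comparisons between hairpins, 11 differences of these genes passed limma's adjusted p threshold of 0.05, which is what put them here. Each is a log2 difference ± SE with 2 arrays a group. For Gadd45b, shDnmt3L3 minus shDnmt3L2 was 1.43 ± 0.13 (adjusted p = 6.74e-05), shDnmt3L1 minus shDnmt3L2 was 0.91 ± 0.13 (adjusted p = 0.00621) and shDnmt3L3 minus shDnmt3L1 was 0.53 ± 0.13 (adjusted p = 0.0121). For Tdg, shDnmt3L3 exceeded shDnmt3L1 by 0.43 ± 0.12 (adjusted p = 0.0226) and shDnmt3L2 by 0.43 ± 0.12 (adjusted p = 0.0177). For Apobec1, shDnmt3L3 exceeded shDnmt3L1 by 0.39 ± 0.09 (adjusted p = 0.00902) and shDnmt3L2 by 0.28 ± 0.09 (adjusted p = 0.0298). For Tet1, shDnmt3L3 exceeded shDnmt3L1 by 0.32 ± 0.10 (adjusted p = 0.0347), and shDnmt3L1 minus shDnmt3L2 was -0.46 ± 0.10 (adjusted p = 0.0279). For Gadd45a, shDnmt3L3 minus shDnmt3L2 was -0.27 ± 0.09 (adjusted p = 0.0351) and shDnmt3L1 minus shDnmt3L2 was -0.4 ± 0.09 (adjusted p = 0.0273).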

How the results depend on the processing

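Over 48 results of the 6 genes and 19 other settings there were 862 values, of which 788 kept their side of the threshold, 70 lost the call and 4 gained one. No called value changed sign, and 15 of the 788 did so with neither value called. The scaling by the median of detected probes was chosen after seeing the data. With the hairpin group as a random block, the estimated correlation was 0.691 over genes. Calls of the 3-hairpin comparison fell to 0 of 5 genes, 0 of 6 probes and 0 of 41 list genes. Over all genes there were 323 calls, beside 5707 in the setting of the report. In that limma fit 15 of the 72 list genes had an unadjusted p under 0.05, beside 2220 of all 10930 genes. Median scaling left 3 of 6 calls for shDnmt3L2 against shGFP and 2 of 4 for shDnmt3L3 against shDnmt3L1, where the authors' processed intensities left 1. The cause was not tested. For shDnmt3L1 against shDnmt3L2 over all genes, 880 calls became 1833 without background correction, 1665 with offset 50, 1419 with detection p under 0.01 on all 8 arrays and 1710 with a trended, robust spread model. Of all calls in the 3-hairpin comparison 52.6% were higher, 63.8% with median scaling and 42.1% with detected-probe scaling, as the median of all genes moved to 0.07 and -0.06. With the replicate block 5 genes were still called over the 3 hairpins, and the only call lost among the 48 results was Gadd45a with shDnmt3L2 (adjusted p = 0.05). Leaving out each array in turn leaves 1 array in a group, assumed to vary like the others. It gave 4 to 5 genes over the 3 hairpins, 4 to 4, 3 to 5 and 3 to 5 for shDnmt3L1, shDnmt3L2 and shDnmt3L3 against shGFP, 5 to 6 in the F test, 1 to 4 for shDnmt3L3 against shDnmt3L1, 1 to 4 against shDnmt3L2, 0 to 3 for shDnmt3L1 against shDnmt3L2, 5 to 6 probes, and 25 to 39 list genes. Over all genes it gave 143 to 776 for shDnmt3L1 against shDnmt3L2. In every comparison of genes, fewer of all genes were called than in the setting of the report, whichever array was left out. The Tet3 probes and the second Tdg probe lie at background, where a change could not be measured.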
